A study of Mus musculus with 10 samples.

Results

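The proteasome subunit genes were taken as the named genes of the array whose symbol begins with Psma, Psmb, Psmc or Psmd followed by a digit. The rule found 40 of the 19937 genes that the array annotation names by 1 symbol, each read by its brightest probe set. Of these, 38 were bright enough to be tested, among 13138 genes tested in all. The 40 genes comprise 7 alpha and 7 constitutive beta subunits of the 20S core, 5 immuno-, thymus- or testis-type subunits, 6 ATPases and 11 other subunits of the 19S cap, and 3 chaperones of cap assembly. Psmc3ip also meets the rule by its name, but it encodes a partner protein of meiotic recombination and not a subunit.

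RNA came from CD4 CD8 double-positive (DP) thymocytes, the stage at which T cell receptor alpha genes rearrange and cells are selected, of 8 week old mice with 1 Affymetrix array per mouse. DP cells of DKO mice (E2Aflox/flox HEBflox/flox cd4-cre+, n = 3) lacked both E2A (encoded by Tcf3) and HEB (encoded by Tcf12), transcription factors of the E protein family that bind E-boxes. Those of HEBKO mice (HEBflox/flox cd4-cre+, n = 2) and E2AKO mice (E2Aflox/flox Cd4-cre+, n = 2) lacked 1 factor each, and WT mice (wild-type cd4-cre+, n = 3) lacked neither. Every mouse, WT included, carried the Cre recombinase driven by Cd4 sequences, so floxed alleles were lost in T lineage cells as Cd4 came on and not in the rest of the thymus. Xist and Y-linked transcripts showed 2 females in DKO and 1 in each other genotype. Values are log2 intensities of the array unless they are called summed, which are linear. As a check of the genotypes, Tcf12 averaged 10.71 in DKO, 11.31 in HEBKO, 11.93 in E2AKO and 11.84 in WT, and Tcf3 averaged 9.05 in DKO, 10.04 in HEBKO, 9.17 in E2AKO and 9.71 in WT. Each was lower than WT in the genotypes meant to lack it, and Tcf3 was above WT in HEBKO. The drop of Tcf12 was smaller in HEBKO than in DKO. Tcf12 read 11.15 and 11.48 in HEBKO arrays, 10.68 to 10.73 in DKO arrays and 11.74 to 11.91 in WT arrays. The 9 DP cell markers on the array had summed intensities of 23194 to 27543 in DKO, 33751 to 45163 in HEBKO, 46578 to 48133 in E2AKO and 47432 to 50093 in WT. The 7 markers of mature single-positive T cells had summed intensities of 4291 to 6084 in DKO, 794 to 1722 in HEBKO, 725 to 995 in E2AKO and 786 to 841 in WT. In RNA from sorted cells, a change per cell and a change in which cells were sorted cannot be told apart. The second WT array was high for nearly all proteasome genes, so counts are also given without it. Leaving it out lowers the WT mean of these same genes, so higher counts without it are no support for a rise.

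The proteasome is the barrel-shaped protease that degrades proteins tagged with ubiquitin. Its 20S core is built of alpha rings, which gate the entry, around beta rings, which hold the protease sites, and its 19S cap receives, unfolds and feeds in the substrates. The constitutive catalytic subunits are Psmb5 (chymotrypsin-like), Psmb6 (caspase-like) and Psmb7 (trypsin-like). In immune cells they can be replaced by the interferon-inducible Psmb8, Psmb9 and Psmb10, which favour peptides that fit class I histocompatibility molecules. Cortical epithelium of the thymus instead uses Psmb11, and germ cells of the testis use the alpha subunit Psma8.

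The promoter windows of 3 members that rose in DKO are shown because these genes represent the core alpha ring, a core protease site and the cap. Each window runs from 250 bases before to 50 bases after the start of the RefSeq gene model (GRCm38.p6), 5′ to 3′ on the gene's strand. Capitals mark matches, on either strand, to any of 5 motifs: CCAAT, the NF-Y box; CACCTG and CAGCTG, E-boxes of the kind bound by E2A and HEB; CACGTG, the E-box bound by Myc; and TGACNNNGC, the antioxidant response element used by NRF1 and NRF2.
Psma3, chr12:70974373-70974672, plus strand, with CCAAT at 3 places and CACCTG at 1.
Psma3: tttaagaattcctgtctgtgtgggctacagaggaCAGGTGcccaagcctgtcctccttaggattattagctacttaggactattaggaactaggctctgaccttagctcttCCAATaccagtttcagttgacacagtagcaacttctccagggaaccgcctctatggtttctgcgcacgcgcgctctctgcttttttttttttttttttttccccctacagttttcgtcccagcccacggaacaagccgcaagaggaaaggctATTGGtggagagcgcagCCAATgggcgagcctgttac
Psmb6, chr11:70525107-70525406, plus strand, with TGACNNNGC at 1 place.
Psmb6: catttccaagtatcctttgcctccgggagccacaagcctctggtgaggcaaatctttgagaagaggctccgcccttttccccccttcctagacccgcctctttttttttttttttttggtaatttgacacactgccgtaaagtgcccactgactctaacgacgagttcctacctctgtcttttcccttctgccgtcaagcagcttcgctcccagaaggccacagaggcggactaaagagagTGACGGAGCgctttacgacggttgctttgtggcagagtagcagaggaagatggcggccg
Psmd14, chr2:61711444-61711743, plus strand, with CCAAT at 3 places, 2 of them overlapping.
Psmd14: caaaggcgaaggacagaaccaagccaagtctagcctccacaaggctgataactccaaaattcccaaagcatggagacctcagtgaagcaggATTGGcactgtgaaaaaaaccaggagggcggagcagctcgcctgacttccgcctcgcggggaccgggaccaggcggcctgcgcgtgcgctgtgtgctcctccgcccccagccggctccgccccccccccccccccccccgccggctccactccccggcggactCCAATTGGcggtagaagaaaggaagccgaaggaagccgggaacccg

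RefSeq windows were used for 33 members, 35 windows in all. Windows on chromosome 18, which holds Psma8, were left out. TGACNNNGC lay in 14.3% of these windows and in 12.4% of all 32851 mouse windows used, CCAAT in 40% and 37.4%, and CACGTG in 8.57% and 7.15%. CACCTG lay in 20% of the members' windows and in 20.2% of all windows, and CAGCTG in 8.57% and 16.3%. TGACNNNGC stood in the windows of Psmb5, Psmb6, Psmc6, Psmd9 and Psmd12. Of these 5 genes, Psmb6 alone passed the test in DKO against WT. In that test 7 of the 38 tested members passed, and 5 of the 7 had a window used here. Psmb1 and Psmb2 had none. The windows of Psma4, Psmb10 and Psmd9 held CACGTG, and those of Psma4, Psmd4 and Psmd10 held CAGCTG. Psma4 alone passed in both sets. Of the 7 members with CACCTG, Psma3 alone passed. Of the 14 with CCAAT, Psma3, Psma7 and Psmd14 passed. The CACCTG and CCAAT sets both include Psmb11, which was too dim to be tested. Whether any motif goes with the change was not tested. A match describes letters only and does not show that a factor binds.

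In DKO cells, 7 of the 38 tested members, all of them subunit genes, rose against WT and none fell. The genes that rose were Psma3, Psma4 and Psma7 of the alpha ring, Psmb1, Psmb2 and Psmb6 of the beta ring, and Psmd14 of the cap, by 1.3- to 1.5-fold. Over all 13138 genes tested, 8.18% rose and 5.41% fell at the same threshold, an adjusted p under 0.05 in limma (13.6% in all). The median log2 change was 0.28 over the 38 members and -0.01 over all genes. A positive change was seen in 31 of the 38 members and in 6437 of the 13138 genes. The other 31 members did not pass. At an unadjusted p under 0.05 there were 18 members, and 3378 of the 13138 genes. The count called was 20 members without the second WT array, where 14.6% of all genes were called in either direction. It was 3 without the first WT array (9.26% of all genes) and 2 without the third (7.57%). It was 2 without the second DKO array (8.58%) and 4 without the third (7.92%).

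**Figure D1:**
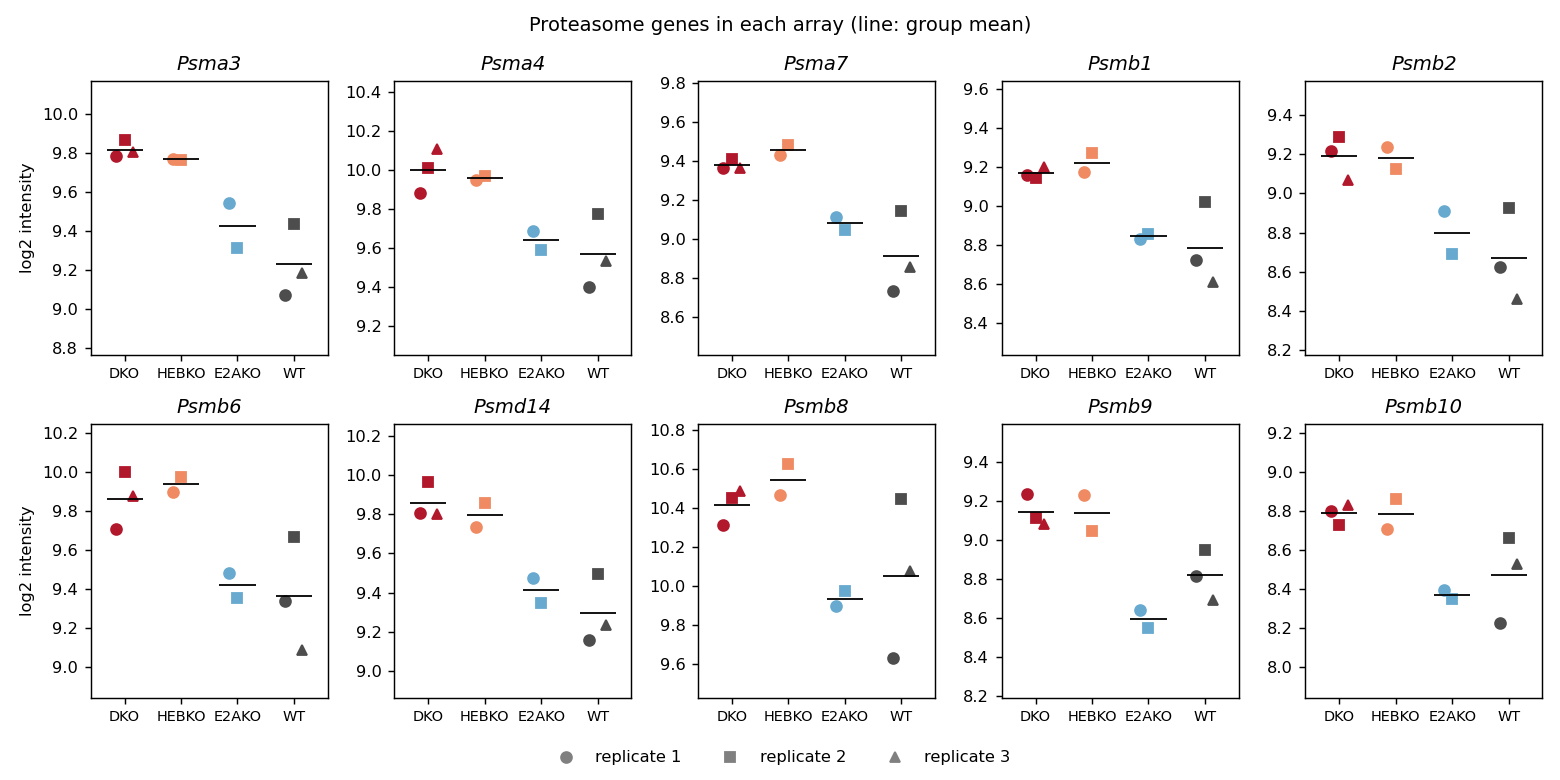
Log2 intensity in each array of the 7 members that rose in DKO and the 3 immuno subunits, 1 panel per gene, with DKO leftmost and WT rightmost, a marker shape per replicate number and lines for group means. All 3 DKO points lie above all 3 WT points in the 7 members that rose, and the second WT array is the highest WT point in each of the 10 panels.

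Psma3, an alpha subunit, read 9.78, 9.86 and 9.80 in DKO arrays, against 9.07, 9.43 and 9.18 in WT arrays. All DKO mice lay above all WT mice, and the difference of 0.59 ± 0.11 (log2, SE) was the largest of any member (limma adjusted p = 0.00392). Psma3 has 3 probe sets, and those not used gave differences of 0.25 and 0.49, so with the mean of the sets its change was 0.44 ± 0.11 (limma adjusted p = 0.0211). Psma7, another alpha subunit, read 9.36, 9.41 and 9.36 in DKO arrays, against 8.74, 9.15 and 8.86 in WT arrays. Its difference was 0.47 ± 0.11 (limma adjusted p = 0.0139). Psma4 read 9.88, 10.01 and 10.11 in DKO arrays, against 9.40, 9.77 and 9.54 in WT arrays. DKO and WT did not overlap in either gene, and Psma4 differed by 0.43 ± 0.11 (limma adjusted p = 0.0223).

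Psmb2, a beta subunit without a protease site, read 9.22, 9.29 and 9.07 in DKO arrays, against 8.62, 8.93 and 8.46 in WT arrays. The difference was 0.52 ± 0.13 (limma adjusted p = 0.0168). Psmb6, which carries the caspase-like site, read 9.71, 9.9995 and 9.87 in DKO arrays, against 9.34, 9.66 and 9.09 in WT arrays. The groups lay close, with the lowest DKO mouse just above the highest WT mouse, and differed by 0.50 ± 0.14 (limma adjusted p = 0.0331). Psmb1, a structural beta subunit, read 9.16, 9.14 and 9.20 in DKO arrays, against 8.72, 9.02 and 8.61 in WT arrays. It differed by 0.38 ± 0.11 (limma adjusted p = 0.0370), again without overlap.

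The other 8 core subunits did not pass. Psma2 (0.35 ± 0.11, limma adjusted p = 0.0590), Psma5 (0.45 ± 0.15, 0.0708) and Psmb3 (0.21 ± 0.10, 0.205) also had every DKO array above every WT array. The protease subunits Psmb5 and Psmb7 had differences of 0.28 ± 0.16 and 0.26 ± 0.16, with overlapping groups. Psma6, an alpha subunit, had the lowest value of the core at -0.14 ± 0.10. It read 10.47, 10.36 and 10.17 in DKO arrays, against 10.43, 10.54 and 10.46 in WT arrays, and stood apart in sign from the other 13 core genes. In all, 9 of the 14 core genes had no overlap with WT in the upward direction, as had 16.7% of all genes tested.

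In the cap, Psmd14 was the 1 member of 17 to pass (5.88%), where 8.18% of all genes tested rose. It encodes the metalloprotease that removes ubiquitin chains from substrates as they enter. Psmd14 read 9.81, 9.96 and 9.80 in DKO arrays, against 9.16, 9.496 and 9.23 in WT arrays, a difference of 0.56 ± 0.11 (limma adjusted p = 0.00473). Its groups were well separated, and no other cap subunit had every DKO array above every WT array. Of all genes tested, 16.7% had this separation. The median change of the cap was 0.17, against 0.37 for the core. The highest ATPases, which thread substrates into the core, were Psmc6 at 0.39 ± 0.16, Psmc2 at 0.22 ± 0.12 and Psmc4 at 0.18 ± 0.13. The lowest was Psmc1 at -0.19 ± 0.11, with 9.87, 10.01 and 9.78 in DKO arrays, against 9.97, 10.25 and 10.003 in WT arrays, whose ranges overlap narrowly. Among the cap's other subunits, Psmd6 (0.32 ± 0.14) and Psmd7 (0.30 ± 0.14) of the lid followed Psmd14. The lid subunits Psmd3 (-0.15 ± 0.09), Psmd8 (-0.13 ± 0.12) and Psmd11 (-0.10 ± 0.14) were lowest.

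The 3 chaperones that help to assemble the base of the cap diverged. Psmd10, known also as the oncoprotein gankyrin, read 9.23, 9.60 and 9.42 in DKO arrays, against 8.35, 9.20 and 9.02 in WT arrays. Its difference of 0.56 ± 0.19 was as large as that of Psmd14, but its WT arrays were more widely spread and it did not pass (limma adjusted p = 0.0832). Psmd5 differed by 0.47 ± 0.14 (limma adjusted p = 0.0512). Psmd9 read 8.35, 8.32 and 8.19 in DKO arrays, against 8.38, 8.53 and 8.55 in WT arrays. It was the 1 member with every DKO array below every WT array (13.4% of all genes were), at -0.20 ± 0.10 (limma adjusted p = 0.244). Psmc3ip, which is no subunit, differed by 0.03 ± 0.14.

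The immunoproteasome subunits did not pass in DKO cells, although each had a positive difference. Psmb8 read 10.31, 10.45 and 10.49 in DKO arrays, against 9.63, 10.45 and 10.08 in WT arrays. The second WT mouse reached the DKO values, and the difference was 0.36 ± 0.16 (limma adjusted p = 0.187). Psmb9 read 9.23, 9.12 and 9.08 in DKO arrays, against 8.82, 8.95 and 8.69 in WT arrays. The groups did not overlap, and the difference of 0.32 ± 0.10 was just short of the threshold (limma adjusted p = 0.0522). Psmb10 read 8.80, 8.73 and 8.83 in DKO arrays, against 8.23, 8.66 and 8.53 in WT arrays, a difference of 0.32 ± 0.11 (limma adjusted p = 0.0939). All 3 genes were among the 20 members called when the second WT array was left out. None of the 3 was called when the first or the third WT array was left out. Of 11 markers of dendritic cells and macrophages, which are rich in immunoproteasomes, 7 lay under the 40th percentile in all arrays, and the summed intensity of the 11 was 537 to 651 in DKO, 587 to 613 in HEBKO, 565 to 580 in E2AKO and 589 to 691 in WT.

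Psmb11 and Psma8, the subunits of thymic epithelium and testis, were dimmer than the 40th percentile of intensity on each of the 10 arrays, and so were not tested. Psmb11 read 5.69, 5.74 and 5.72 in DKO, 5.71 and 5.73 in HEBKO, 5.82 and 5.70 in E2AKO, and 6.00, 5.59 and 5.68 in WT arrays. Psma8 read from 4.92 to 5.26 over the 10 arrays. Both sat under the 40th percentile, which was 6.03 to 6.13 by array, while the 3 immuno subunits read from 8.23 to 10.62.

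**Figure D2:**
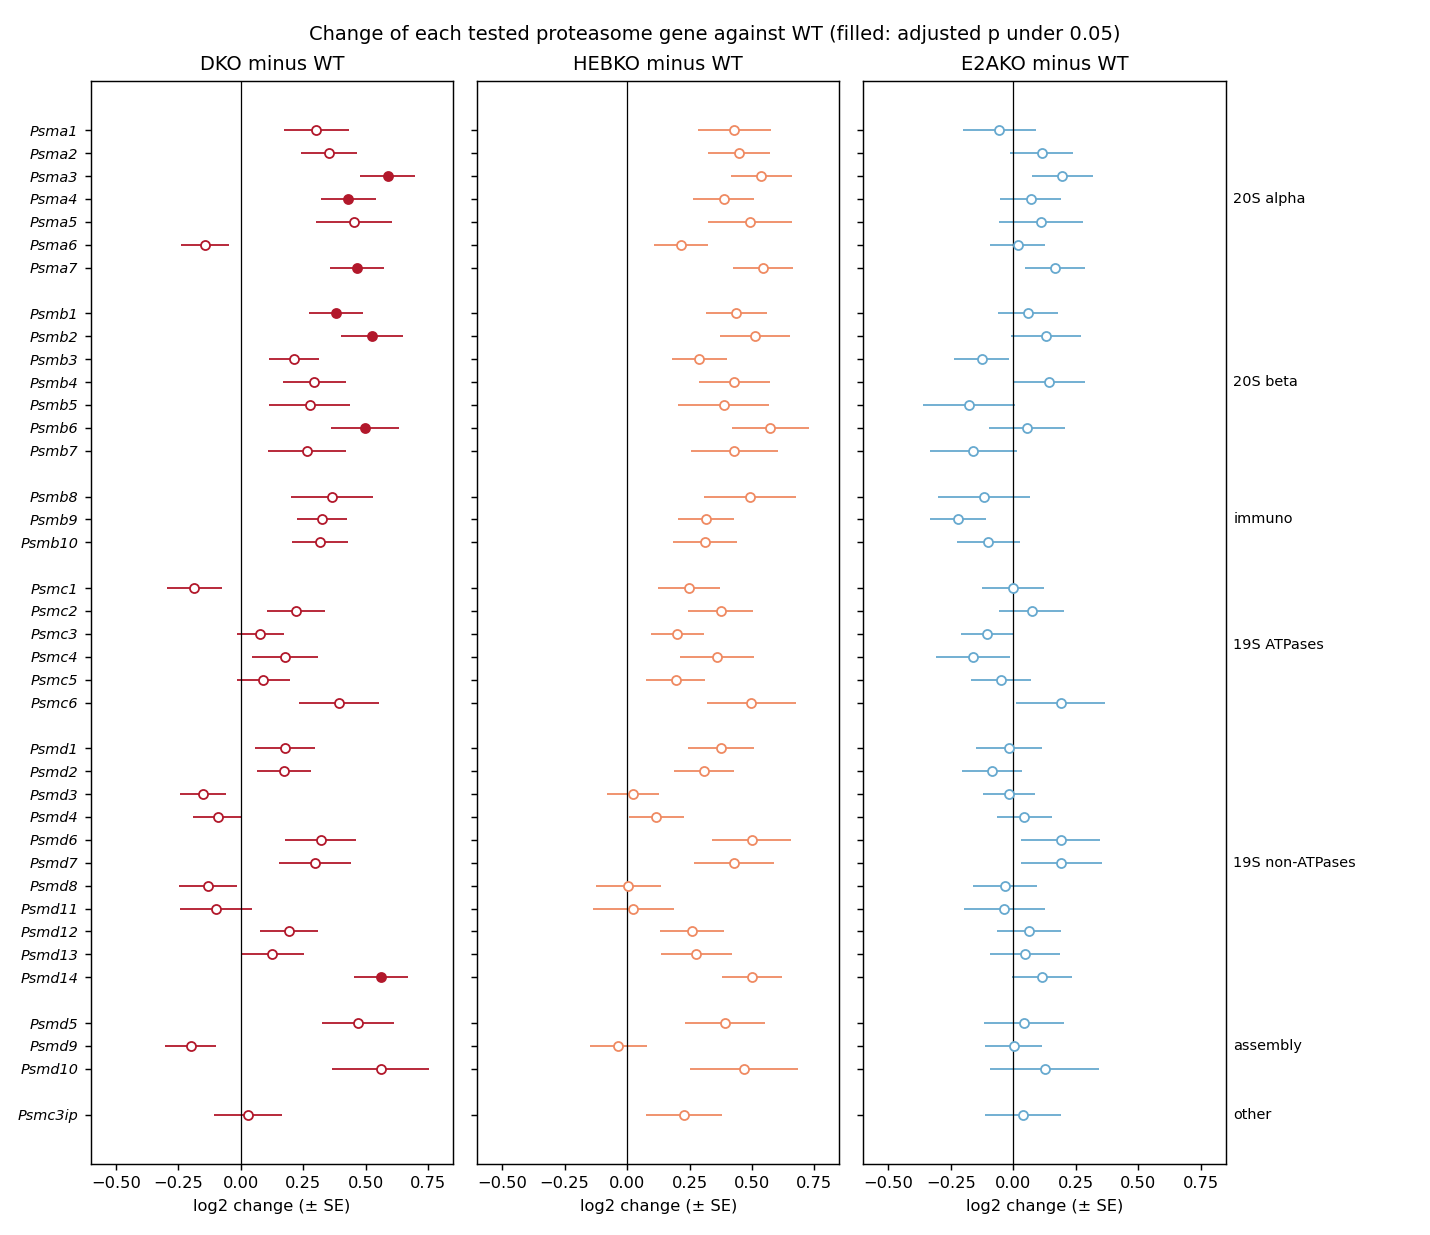
Log2 change against WT of each tested member in DKO, HEBKO and E2AKO, with standard errors from the fit and filled points for members that passed the test. The 7 filled points are all in DKO, HEBKO values exceed DKO values in 30 of 38 members, and E2AKO values run from -0.22 to 0.20.

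HEBKO cells had higher values than WT in 37 of the 38 members and in 6488 of the 13138 genes. The median log2 change was 0.38 over the members and -0.003 over all genes, yet 0 members passed the limma test. Over all genes 0.906% were called in this comparison of 2 HEBKO arrays, 0.274% as higher and 0.632% as lower. At an unadjusted p under 0.05 there were 24 members, and 2190 of the 13138 genes, and the smallest adjusted p was 0.0634 for Psma7. Both HEBKO arrays lay above all 3 WT arrays in 23 of the 38 members, compared with 16.5% of all genes. Changes ran from -0.03 for Psmd9 to 0.57 for Psmb6. With the second WT array left out, 15 members were called, and 3.78% of all genes in either direction. The 17 proliferation genes had a median change of 0.47 in HEBKO, with both HEBKO arrays above all WT arrays in 16, and their part in the result was not tested.

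The core was again above the cap, with medians of 0.43 and 0.28. Psmb6 read 9.90 and 9.97 in HEBKO arrays, against 9.34, 9.66 and 9.09 in WT arrays, a difference of 0.57 ± 0.15. Psma7 read 9.43 and 9.48 in HEBKO arrays, against 8.74, 9.15 and 8.86 in WT arrays, a difference of 0.54 ± 0.12. In neither gene did the groups overlap. Psma3 followed with 9.77 and 9.76 in HEBKO arrays and a difference of 0.54 ± 0.12. Psmb3 (0.29 ± 0.11) and Psma6 (0.22 ± 0.11) were the lowest of the core. In the cap, Psmd14 (0.50 ± 0.12), Psmd6 (0.50 ± 0.16) and Psmc6 (0.50 ± 0.18) led, and Psmd8 (0.00 ± 0.13), Psmd11 (0.02 ± 0.16) and Psmd3 (0.03 ± 0.10) were lowest.

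The immuno subunits had the same sign in HEBKO. Psmb8 read 10.46 and 10.62 in HEBKO arrays, against 9.63, 10.45 and 10.08 in WT arrays, and differed by 0.49 ± 0.18 (limma adjusted p = 0.208). Psmb9 read 9.23 and 9.04 and differed by 0.32 ± 0.11 (0.186), and Psmb10 read 8.71 and 8.86 and differed by 0.31 ± 0.13 (0.246). Each had both HEBKO arrays above every WT array, though for Psmb8 the gap to the second WT mouse was small.

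E2AKO values lay on both sides of WT. Of the 38 members, 0 passed limma, 0 reached an unadjusted p under 0.05, and 22 had a positive change, with a median of 0.04. The background was 0 of 13138 genes called, 418 at an unadjusted p under 0.05 and 5719 with a positive change, with 2 E2AKO arrays. Changes ran from -0.22 for Psmb9 to 0.20 for Psma3 and 0.19 for Psmd7 and Psmc6. Psmb9 read 8.64 and 8.55 in E2AKO arrays, against 8.82, 8.95 and 8.69 in WT arrays, and was the 1 member with both E2AKO arrays below all WT arrays, as were 10.6% of all genes. Its difference of -0.22 ± 0.11 had a 95% interval from -0.47 to 0.02. Psmb8 (-0.12 ± 0.18) and Psmb10 (-0.10 ± 0.13) were also slightly negative, and the sign of Psmb8 turned to 0.081 without the second WT array.

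None of the 38 members passed limma between DKO and HEBKO, where 3.63% of all genes did. At an unadjusted p under 0.05 there were 2 members, and 1998 of the 13138 genes. These were Psmc1, with 9.87, 10.01 and 9.78 in DKO arrays and 10.37 and 10.27 in HEBKO arrays (-0.43 ± 0.12, limma adjusted p = 0.0838), and Psma6, with 10.47, 10.36 and 10.17 in DKO arrays and 10.73 and 10.65 in HEBKO arrays (-0.36 ± 0.11, 0.106). In both, every DKO array lay below every HEBKO array, as in 11 members and in 16.4% of all genes. The median difference was -0.12 over the members and 0.002 over all genes. For Psmd14 the difference was 0.06 with a 95% interval from -0.20 to 0.33, so neither equal levels nor a moderate difference is shown.

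Against E2AKO, 2 of the 38 members (5.26%) rose in DKO, which is close to the 5.1% of all genes that rose. Psmb9 read 9.23, 9.12 and 9.08 in DKO arrays, against 8.64 and 8.55 in E2AKO arrays, and rose by 0.55 ± 0.11 or 1.46-fold (limma adjusted p = 0.00945). Psmd14 read 9.81, 9.96 and 9.80 in DKO arrays, against 9.47 and 9.35 in E2AKO arrays, and rose by 0.45 ± 0.12 or 1.36-fold (limma adjusted p = 0.0389). Psmb9 was not called without the second E2AKO array, and Psmd14 lost its call in 8 of the alternatives run. The count was 6 without the second WT array (9.84% of all genes called in either direction) and 4 without the first (9.54%), against 9.07% with all arrays. It was 0 without the second E2AKO array (4.71%), and 1 without the first E2AKO, the third WT or any 1 DKO array (4.45% to 7.68%). In 24 of the 38 members every DKO array lay above every E2AKO array, among them 13 of the 14 core genes and all 3 immuno subunits, as did 24.1% of all genes. HEBKO lay above E2AKO in all arrays in 33 members (27.2% of all genes), with a median difference of 0.34 (0.04 over all genes). None of the 38 members passed limma there, 0.0381% of all genes did, and 19 members reached an unadjusted p under 0.05, as did 2017 of the 13138 genes.

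The departure from additivity, DKO minus HEBKO minus E2AKO plus WT on the log2 scale, was negative in 33 of the 38 members with a median of -0.12. Over all 13138 genes it was negative in 5947, with a median of 0.02. No member passed (0.632% of all genes did), 2 members and 1145 of the 13138 genes reached an unadjusted p under 0.05, and the members' smallest adjusted p was 0.481. The values ran from -0.43 for Psmc1 to 0.23 for Psmb9.

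Each immuno subunit was also set against the constitutive subunit that it replaces, which asks whether the paired forms moved apart. The change of Psmb8 minus that of Psmb5 was 0.09 in DKO, 0.11 in HEBKO and 0.06 in E2AKO. The change of Psmb10 minus that of Psmb7 was 0.05 in DKO, -0.12 in HEBKO and 0.06 in E2AKO. The change of Psmb9 minus that of Psmb6 was -0.17 in DKO, -0.26 in HEBKO and -0.28 in E2AKO. By array, Psmb9 minus Psmb6, set to 0 at the WT mean, was 0.07, -0.34 and -0.25 in DKO, -0.13 and -0.39 in HEBKO, -0.30 and -0.26 in E2AKO, and 0.02, -0.17 and 0.15 in WT. DKO and HEBKO arrays each overlapped WT arrays in this difference, while both E2AKO arrays lay below all WT arrays. The difference was not tested.

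**Figure D3:**
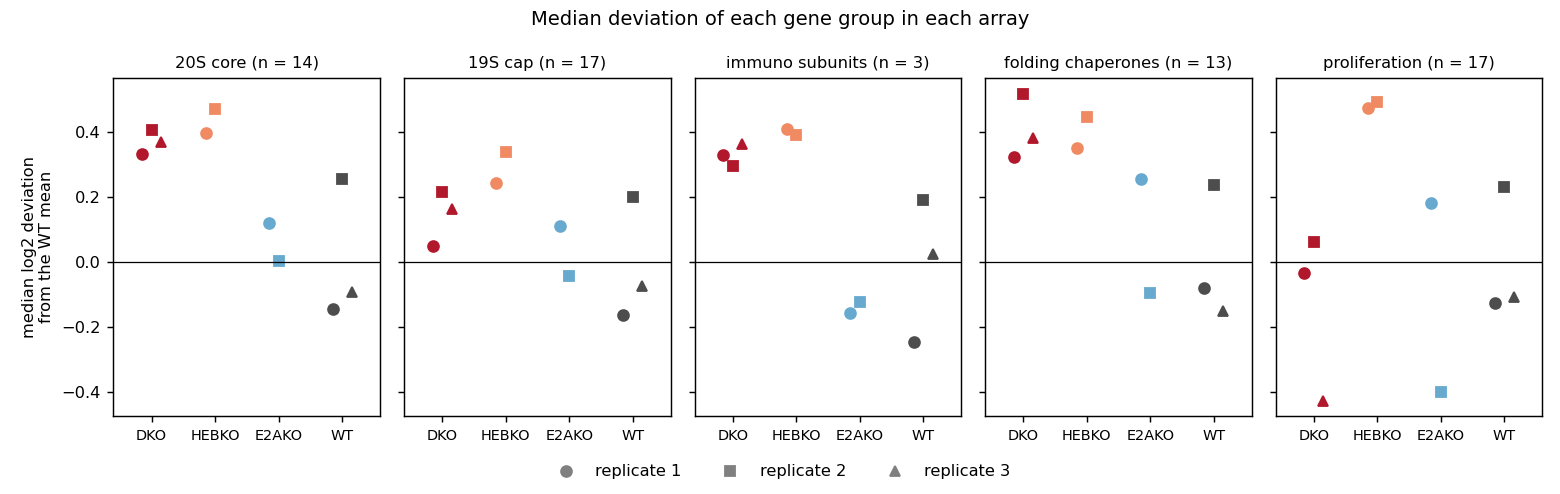
Median deviation from the WT mean (log2) in each array for 14 core, 17 cap and 3 immuno genes, 13 folding chaperones and 17 proliferation genes, 1 panel per group, with DKO arrays leftmost and WT arrays rightmost. The core medians of DKO and HEBKO arrays lie between 0.33 and 0.47, and the second WT array reaches 0.26.

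The members deviated in the same direction within most mice, in WT too. The median deviation of the 38 members from the WT mean was 0.19, 0.31 and 0.28 in DKO, 0.30 and 0.41 in HEBKO, 0.08 and -0.02 in E2AKO, and -0.16, 0.24 and -0.06 in WT arrays. The second WT mouse thus lay at the level of DKO mice, and all 38 members were above the WT mean in it. It was the highest WT array for 94.7% of members and for 40.4% of all genes. The range of a member over the 3 WT arrays had a median of 0.41, which is larger than the median DKO change.

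The core and the cap separated within arrays. The median of the 14 core genes minus that of the 17 cap genes was 0.28, 0.19 and 0.21 in DKO, 0.15 and 0.13 in HEBKO, 0.01 and 0.05 in E2AKO, and 0.02, 0.06 and -0.02 in WT. DKO and HEBKO arrays were all above WT arrays in this measure, and the second WT mouse did not stand apart in it. It is a description with no test.

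Other lists moved with the members to different degrees. The median deviation of 17 proliferation genes was -0.03, 0.06 and -0.43 in DKO, 0.47 and 0.49 in HEBKO, 0.18 and -0.40 in E2AKO, and -0.13, 0.23 and -0.11 in WT. All 17 were above the WT mean in both HEBKO arrays, the first E2AKO array and the second WT array, while 7, 12 and 1 of 17 were above it in DKO. The proliferation list was thus high in the HEBKO and WT arrays where the members were high, while in the third DKO mouse it was at -0.43 with the members at 0.28. The 13 folding chaperones were at 0.32, 0.52 and 0.38 in DKO, 0.35 and 0.44 in HEBKO, 0.26 and -0.09 in E2AKO, and -0.08, 0.24 and -0.15 in WT, near the core in each DKO and HEBKO array. Mature single-positive markers deviated by 2.91, 2.52 and 2.81 in DKO, 1.19 and -0.06 in HEBKO, -0.07 and 0.15 in E2AKO, and -0.05, 0.11 and -0.05 in WT. In the second HEBKO mouse these markers were at the WT level with the members at 0.41. What part either list has in the DKO result was not tested.

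**Figure D4:**
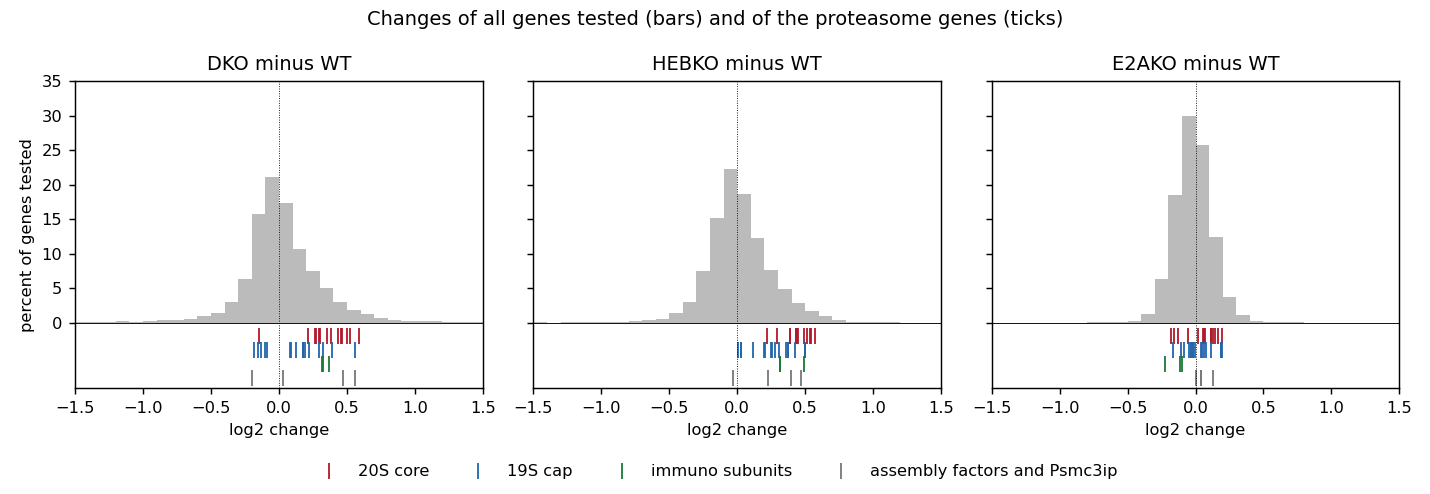
Distribution of log2 changes against WT over all 13138 genes tested (bars, percent of genes) with the proteasome members drawn as ticks below the bars, coloured by class, for DKO, HEBKO and E2AKO. Changes beyond 1.5 in size are not drawn. The members' medians are 0.28, 0.38 and 0.04, and the members are themselves among the genes counted in the bars.

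Genes that assemble or regulate the proteasome were followed as separate lists. For all lists, the background in DKO against WT was 13.6% of all genes called, 8.18% as higher and 5.41% as lower. Of the 5 chaperones that build the core, Psmg1 (0.46 ± 0.12), Psmg2 (0.54 ± 0.13) and Psmg4 (0.34 ± 0.10) rose in DKO against WT, with limma adjusted p = 0.0289, 0.0194 and 0.0486, and Pomp and Psmg3 did not. Of the 5 activators and inhibitors, the interferon-inducible Psme1 and Psme2, which together form an alternative cap, rose by 0.40 ± 0.11 (limma adjusted p = 0.0350) and 0.85 ± 0.13 (0.000935). Psme2 has a near-identical copy, Psme2b, from which its probe set may not be distinct. Psme3, Psme4 and Psmf1 did not pass. None of 5 tested partners of the cap passed limma, 1 of them at an unadjusted p under 0.05, with a median of 0.17. In HEBKO none of these genes passed either, and 3 core chaperones, 2 activators and 3 cap partners reached an unadjusted p under 0.05. In E2AKO 0 passed and 0 reached it.

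Nfe2l2 (NRF2), a stress-activated transcription factor of proteasome genes, rose by 0.58 ± 0.10 in DKO against WT (limma adjusted p = 0.00310). Nfe2l1 (NRF1), which restores subunit transcripts when the proteasome is inhibited, differed by 0.15 ± 0.10 (0.408). Mafk, a small Maf partner of both, fell by 0.35 ± 0.09 (limma adjusted p = 0.0312), and the other 6 of the 9 tested genes of this axis did not pass. Myc, whose E-box is among the motifs above, averaged 8.89 in DKO, 8.32 in HEBKO, 7.49 in E2AKO and 7.64 in WT. Every DKO and HEBKO array lay above every WT array for Myc. What part any of these factors has in the members' result was not tested. Of 9 ubiquitin and shuttle genes, Ubqln1, which carries substrates to the cap, fell by 0.36 ± 0.09 (limma adjusted p = 0.0280) and the rest did not pass. A single call among 9 genes is no more than the 13.6% of all genes called in either direction.

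Among 12 genes of class I peptide loading and its interferon regulators, 4 rose and 1 fell in DKO, where 8.18% of all genes rose and 5.41% fell. B2m, the light chain of class I molecules, rose by 0.87 ± 0.11 (limma adjusted p = 0.000302), and Irf1, an interferon-induced activator of Psmb9, by 0.57 ± 0.10 (0.00270). Ifngr2 rose by 0.48 ± 0.10 and Tapbp by 0.42 ± 0.11, while Ifngr1 fell by 0.75 ± 0.15 (limma adjusted p = 0.00587). The peptide transporters Tap1 and Tap2 had differences of 0.14 and 0.04. Of 13 folding chaperones 6 rose, led by the mitochondrial pair Hspe1 (0.78 ± 0.16) and Hspd1 (0.75 ± 0.16) and the ring subunits Cct6a (0.64 ± 0.13) and Cct5 (0.52 ± 0.13), with a median of 0.42 over the list. Of the 17 proliferation genes none passed limma in DKO, 2 reached an unadjusted p under 0.05, and the median was -0.15.

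Several probe sets read 5 of the members, and which gene copies each of them reads is uncertain. In DKO against WT, the sets gave 0.45 and 0.29 for Psma5, 0.21 and 0.19 for Psmb3, -0.19 and -0.10 for Psmc1, and 0.17 and 0.26 for Psmd2, beside the 3 values for Psma3 above. All sets of a gene shared a sign.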

How the data were processed

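RNA of sorted DP thymocytes was measured on 10 Affymetrix arrays, 1 per mouse, with 6 µg RNA from about 1000000 cells per the labels. The authors' deposited values are linear intensity values made by RMA, per the submitters' processing notes, with no version given. RMA equalises the arrays, so a change in total RNA per cell is not measured. The log2 of these values was analysed. A gene was read by its brightest probe set and tested if at least 2 arrays had it at or above their 40th percentile. In R 4.3.3, limma 3.58.1 fitted 1 mean for each genotype over the 10 arrays, and two-sided p-values of the 7 contrasts were adjusted by Benjamini-Hochberg over 13138 genes. The contrasts against WT share the WT arrays. Errors are SE unless named. Residual degrees of freedom were 6 and prior degrees 5.68, and the number of arrays limits the precision. The same steps were tested on simulated data in which genes varied independently. Deviations shared by many genes of an array, as in the second WT array, were not simulated.

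The members and lists were chosen with earlier results of these data known. The text names all immuno subunits, all members called, up to the 3 highest and 3 lowest per class and contrast, and up to 4 called genes of each other list. Other members are named for their probe sets or for absence of overlap, after their values were seen. Myc is named because its E-box is among the motifs, also after its values were seen. Alternatives were 2 other filters, 2 normalisations, the mean of probe sets, trend and robust moderation (statmod 1.5.0), array weights, a replicate block, a sex term (sex read from Xist and Y-linked genes), only the groups compared, and each array left out. The labels name no batch.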

Additional observations from a re-analysis of the deposited data

How the results depend on the processing

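The count of members called in DKO against WT was 7 and stayed between 5 and 10 under the other filters, normalisations, probe set rule, moderation, replicate block, sex term and the fit of only the groups compared. It was 27 with array weights (27.8% of all genes called), whose estimation stopped before convergence, and 2 to 20 with 1 array left out (20 without the second WT array, 2 without the third WT or second DKO array). Psma3 and Psmd14 passed in all 20 alternatives, Psma7 in 18, Psmb2 in 17, Psma4 in 16, Psmb6 in 14 and Psmb1 in 11. In HEBKO against WT the count of 0 became 2 after renewed quantile normalisation, 8 with array weights (3.92% of all genes) and 0 to 15 with 1 array left out (15 without the second WT array). In DKO against E2AKO the count of 2 became 5 after renewed quantile normalisation, 1 after a shift to 1 median, 12 with array weights (13.5% of all genes), 1 with the sex term, 4 with only the groups compared and 0 to 6 with 1 array left out. The core median in HEBKO was 0.35 to 0.58 with 1 array left out, the highest without the second WT array. Psmb8 in E2AKO against WT, at -0.12, ran from -0.33 to 0.081 with 1 array left out and changed sign without that array. The other 4 contrasts had 0 members called in every setting run. The causes were not tested.

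Same-numbered arrays had correlations of their deviations of -0.29 to 0.48 over 13 pairs, with a median of 0.15 and 10 pairs over 0.1. Other-numbered arrays had a median of -0.15, with 5 of 24 pairs over 0.1. In a group of 2 arrays the deviations mirror each other, so many other-numbered values are same-numbered ones with the sign turned. The pairs are therefore not independent, and the other-numbered median is no separate comparison. Not every same-numbered pair was over 0.1, and 5 of 10 arrays correlated best with their own number. The labels tie the numbers to nothing shared. The numbers were therefore not taken to pair the mice, although the same-numbered median leans that way. With the replicate block, 10 members were called in DKO against WT (17.7% of all genes) and 4 in DKO against E2AKO (11.7%). Groups of 2 and 3 mice share 1 estimate of the spread, and dim transcripts such as Psmb11 cannot be told from background on these arrays.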
